A study of Mus musculus with 17 samples.

Results

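The genes described here handle lipid and lysosomal cargo in foamy macrophages, the lipid-laden form that macrophages take when they engulf more lipoprotein, surfactant or cell debris than they can export. A list of 35 genes was matched by symbol to the 45777 genes of the count table, all 35 were found, and all 35 were among the 22052 genes that passed the low-count filter. RNA sequencing had been done on left lungs of male wild-type C57BL/6 mice, 6 weeks old at the start and acclimatised for 1 week. The left lung received a single fraction of 65 or 75 Gy from an image-guided small-animal irradiator or was not irradiated, and tissue was collected after 2 weeks, the inflammation stage, or 6 weeks, the fibrosis stage. Each group had 3 libraries except 65 Gy at 6 weeks, which had 2, giving 17 in all. RNA of the irradiated groups came from the lesion in the irradiated lung. Against non-irradiated lung, irradiation and sampled site therefore cannot be told apart. The labels do not say that each library came from a separate animal, and the p-values measure the spread between these libraries.

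As background, a macrophage takes up modified lipoproteins and dead cells through scavenger receptors and delivers them to the lysosome, where acid hydrolases and proteases digest them. Lysosomal acid lipase frees the cholesterol, the NPC proteins carry it out of the lysosome, and the cell then either esterifies it again for storage in lipid droplets or exports it through ABC transporters to apolipoprotein E and other acceptors, under control of the liver X receptors. Many lysosomal genes carry a short palindrome called the CLEAR element in their promoters, which factors of the MiT-TFE family such as MITF and TFEB bind.

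Total counts ran from 46764569 to 66797879 per library with a median of 57608149. The 35 genes took 0.711 to 0.956% of all counts in non-irradiated libraries and 1.48 to 2.47% in irradiated ones. Single libraries stood apart from their groups at 2 weeks. Library 3134 (75 Gy) was the highest of its group for 30 of the 35 genes and library 3132 the lowest for 21, while among non-irradiated libraries 3126 was the highest for 21 and 3127 the lowest for 26. A library whose omission ended a call, or moved a called fold by over 1.5 times, is named beside that result.

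Most of the 35 genes were higher in irradiated lung at both doses and both times. With 75 Gy, 28 were higher and 1 was lower than in non-irradiated lung at 2 weeks, at an edgeR adjusted p of at most 0.05, where 11.8% of all genes tested were higher and 10.5% lower. At 6 weeks 31 were higher and 0 lower with 75 Gy, against 18.0% and 18.0% of all genes. With 65 Gy, 26 were higher and 1 lower at 2 weeks, against 6.7% and 4.29%, and 26 were higher and 0 lower at 6 weeks, against 7.66% and 7.01%. At 6 weeks 1 gene with 75 Gy (Cd36) and 0 with 65 Gy were lower by edgeR at an unadjusted p under 0.05, and DESeq2 called Cd36 lower with 75 Gy. When only the groups compared were fitted, 22 genes were higher with 75 Gy at 2 weeks, the calls of Abca1, Plin2, Npc2, Mitf, Lamp1 and Soat1 being lost, and 31 with 65 Gy at 6 weeks. In whole tissue, more cells of a type and more RNA per cell cannot be told apart.

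A log2 fold change of at least 1 was also required for differentially expressed genes (DEGs). The 35 genes held 21 upregulated DEGs with 75 Gy at 2 weeks and 25 at 6 weeks, against 5.67% and 7.28% of all genes, and 17 and 21 with 65 Gy, against 3.47% and 4.34%. Their median log2 fold change was 1.30 and 1.55 with 75 Gy at 2 and 6 weeks and 0.98 and 1.28 with 65 Gy, where the median of all genes was 0.00, 0.04, -0.01 and 0.01. Every irradiated library lay above every non-irradiated library of its time for 27 of the 35 genes with 75 Gy at 2 weeks and 32 at 6 weeks, against 15.5% and 29.4% of all genes. With 65 Gy these were 27 and 33 genes, against 15.9% and 28.2%.

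**Figure D1:**
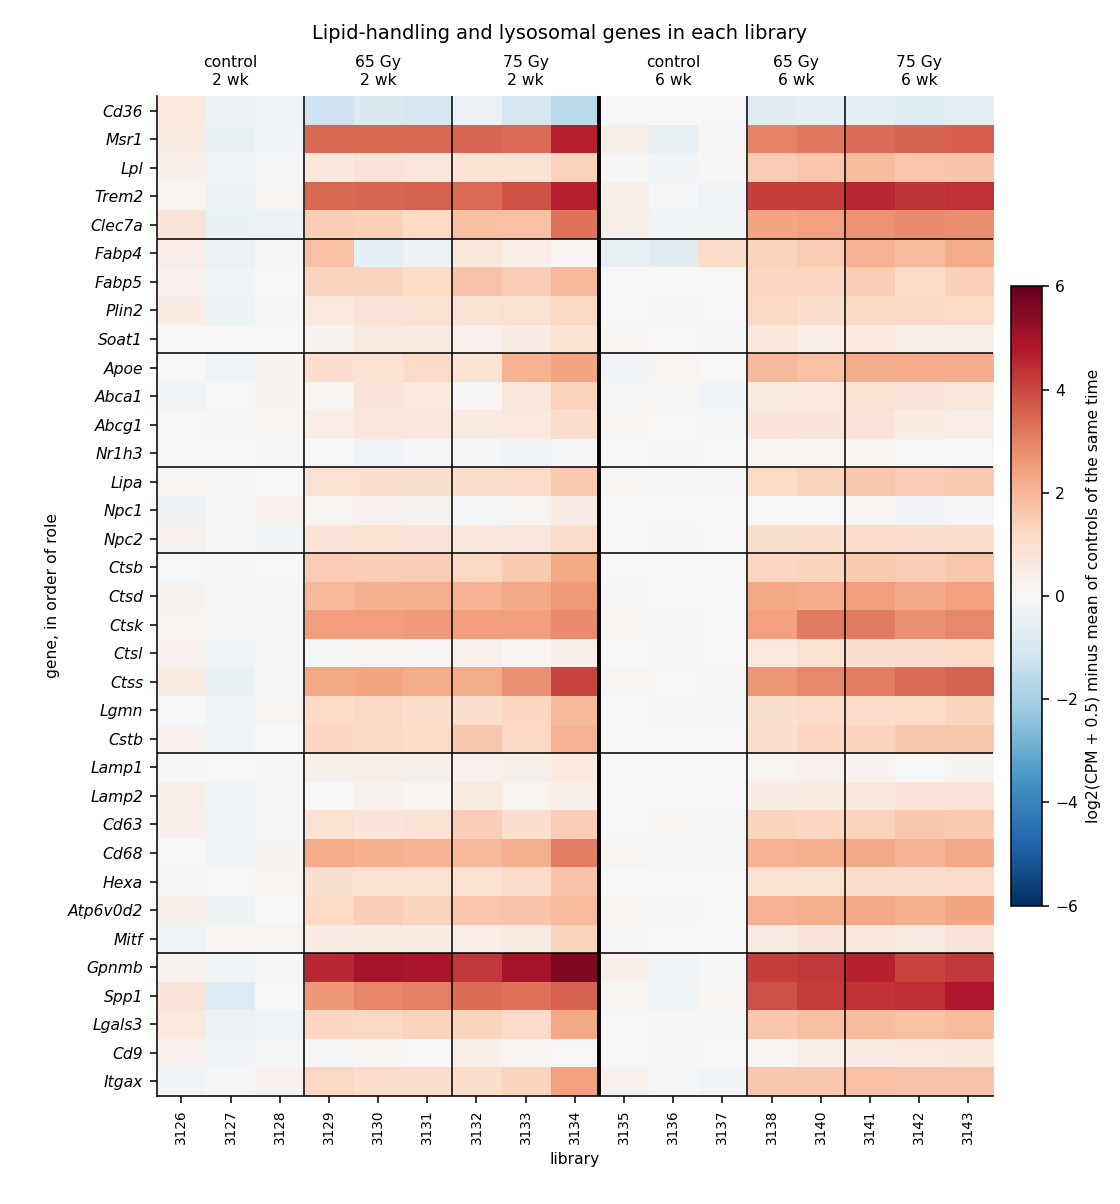
Heat map of the 35 genes (rows, by role) in the 17 libraries (columns, by group), coloured by log2(CPM + 0.5) minus the mean of the non-irradiated libraries of the same time. Irradiated columns are red in most rows, most of all for Gpnmb, Trem2, Msr1 and Spp1, while Cd36 is blue and Nr1h3 and Npc1 stay near white.

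**Figure D2:**
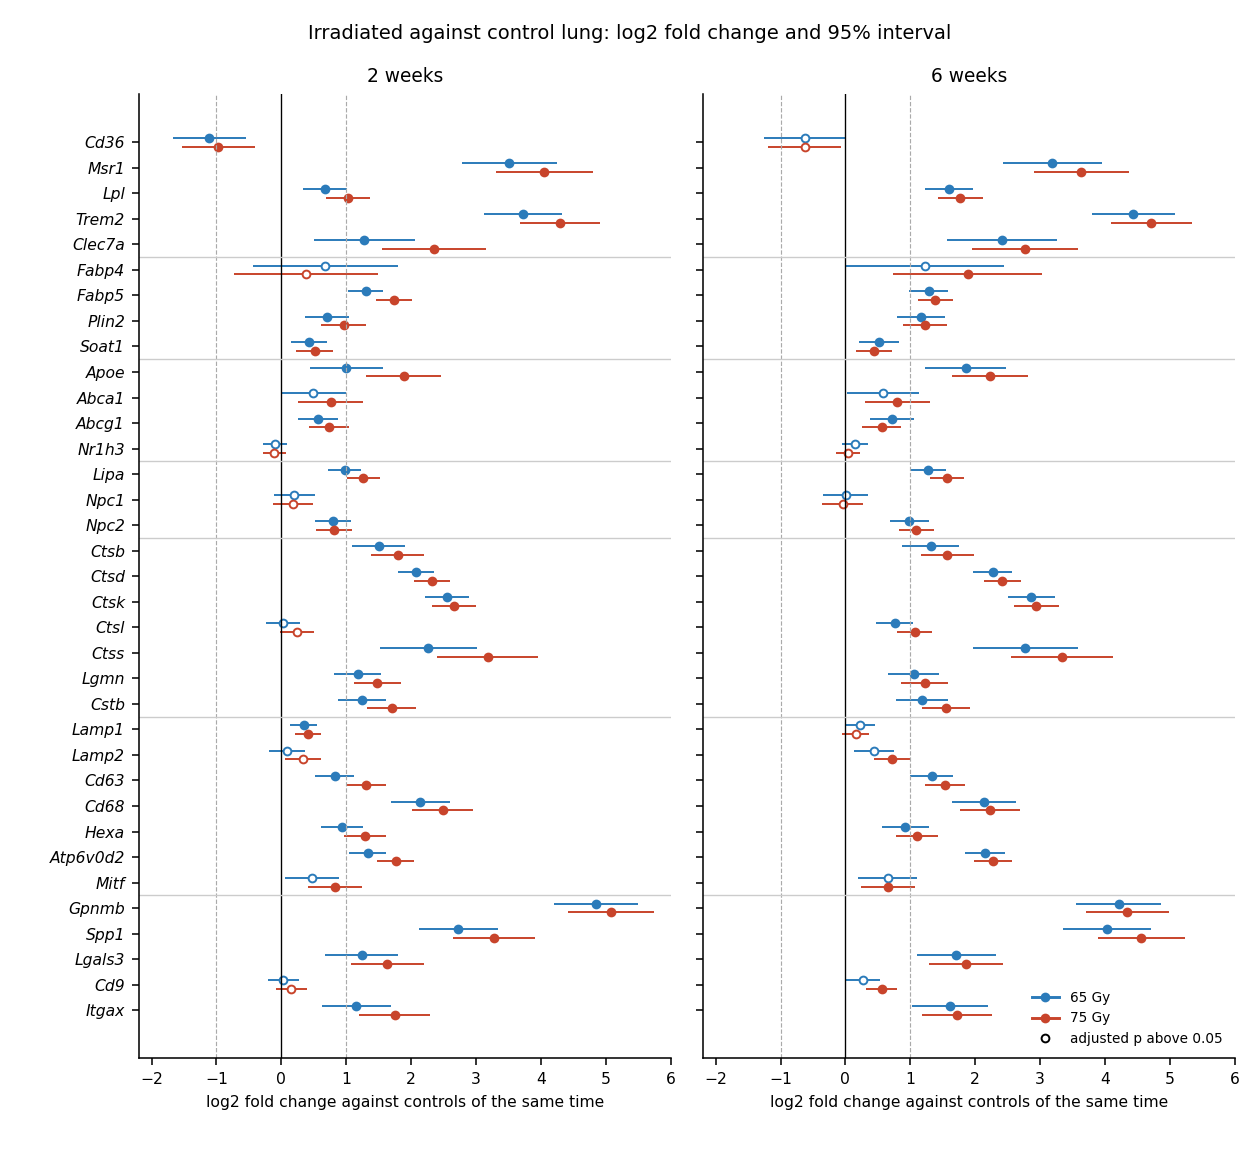
Log2 fold change against non-irradiated lung of the same time (x axis) for each gene (y axis), with 65 Gy in blue, 75 Gy in red and bars for 95% intervals. Filled points have an edgeR adjusted p of at most 0.05; Gpnmb, Trem2, Msr1, Spp1 and Ctss lie far to the right at both times and Cd36 lies left of 0.

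Of the 5 genes grouped under lipid uptake and binding, 4 were higher in each of the 4 comparisons and Cd36 went the other way. The 4 include Clec7a, whose known ligand is beta-glucan and not lipid. Trem2, a lipid-sensing receptor of macrophages (chromosome 17, 48346401-48352276 in GRCm38.p6), was at 2.76, 1.88 and 2.78 CPM (read counts scaled to TMM-adjusted library size) in non-irradiated lung at 2 weeks, at 31.7, 33 and 34.1 CPM with 65 Gy and at 30.5, 40.9 and 75 CPM with 75 Gy. At 6 weeks it was at 2.37, 1.71 and 1.5 CPM in non-irradiated lung, 40.3 and 40.6 with 65 Gy and 52.9, 45.3 and 48.6 with 75 Gy. No irradiated library overlapped the non-irradiated ones. Its fold was 13.3 (95% interval 8.75 to 20.1) and 19.7 (95% interval 12.9 to 30.1) at 2 weeks for 65 and 75 Gy, and 21.7 (95% interval 13.9 to 33.9) and 26.2 (95% interval 17 to 40.5) at 6 weeks.

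Msr1, the class A scavenger receptor for modified lipoproteins, was at 3.04 to 6.35 CPM in non-irradiated lung at 2 weeks, 49.3 to 49.9 with 65 Gy and 50.9, 48.9 and 117 with 75 Gy, the last value being library 3134. Its log2 fold change was 3.52 ± 0.34 and 4.05 ± 0.35 (SE) at 2 weeks and 3.19 ± 0.36 and 3.64 ± 0.34 at 6 weeks for 65 and 75 Gy. Clec7a, the beta-glucan receptor Dectin-1, was at 125, 54.1 and 55.8 CPM in non-irradiated lung at 2 weeks, 205, 198 and 167 with 65 Gy and 258, 248 and 698 with 75 Gy. Library 3134 again lay far above the others. The log2 fold change of Clec7a with 75 Gy at 2 weeks was 2.36, and 1.69 without that library. With 65 Gy at 2 weeks it was 1.28 (edgeR adjusted p = 0.0351), a call that was lost when any of 8 libraries (3127, 3128, 3129, 3130, 3131, 3138, 3140 and 3142) was left out. Lpl, the lipase that frees fatty acids from lipoprotein triglyceride, was at 151 to 225 CPM in non-irradiated lung at 2 weeks and 153 to 183 at 6 weeks. It reached 276 to 306 with 65 Gy and 314 to 472 with 75 Gy at 2 weeks, and 489.7 to 552 and 543 to 647 at 6 weeks, with folds of 1.59, 2.03, 3.02 and 3.41 in that order. The Lpl call with 65 Gy at 2 weeks was lost without library 3127, 3128 or 3130.

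Cd36, a fatty acid translocase and scavenger receptor that capillary endothelium also carries, was at 2721, 1402 and 1577 CPM in non-irradiated lung at 2 weeks, 776, 998 and 869 with 65 Gy and 1441, 864 and 602 with 75 Gy. All 65 Gy libraries lay below the non-irradiated ones, while 1 of the 75 Gy libraries lay among them. At 6 weeks it was at 1519, 1540.0 and 1562 CPM in non-irradiated lung, 974 and 1025 with 65 Gy and 1030.3, 944 and 1016 with 75 Gy, without overlap. The log2 fold change was -1.11 and -0.97 at 2 weeks for 65 and 75 Gy (edgeR adjusted p = 0.015 and 0.0154) and -0.62 and -0.63 at 6 weeks (adjusted p = 0.177 and 0.0739). With 65 Gy at 2 weeks it was a downregulated DEG, the only one among the 35, against 0.88% of all genes. Both 2-week calls were lost without library 3126, at -0.75 and -0.61, and also without library 3129 or 3131 for 65 Gy and 3134 for 75 Gy. Capillary endothelial markers moved with Cd36: 0 of 8 were higher in each comparison, 4 and 7 were lower at 2 weeks and 5 and 7 at 6 weeks for 65 and 75 Gy, and their summed level was 3330.1 to 3873 CPM in non-irradiated and 1345 to 2598 CPM in irradiated libraries. Their defining genes Gpihbp1 and Plvap were far from 0 in all groups, and the part of endothelium in the Cd36 values was not tested.

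Among the 4 genes for fatty acid binding and storage, Fabp5, Plin2 and Soat1 were higher in each comparison and Fabp4 with 75 Gy at 6 weeks. Fabp5, a fatty acid chaperone of macrophages and epithelium, was at 123, 88.2 and 103 CPM in non-irradiated lung at 2 weeks, 271, 266 and 235 with 65 Gy and 336, 303 and 406 with 75 Gy, a fold of 2.46 and 3.33. At 6 weeks the fold was 2.43 and 2.62. Plin2, the coat protein of lipid droplets in most cells, was at 93.8 to 159.6 CPM in non-irradiated lung at 2 weeks and 82.7 to 88.9 at 6 weeks, and at 175 to 273 in all irradiated libraries. Its fold was 1.63 and 1.94 at 2 weeks and 2.25 and 2.33 at 6 weeks, and the 65 Gy call at 2 weeks was lost without library 3127. Soat1, which esterifies cholesterol for storage, changed by a log2 fold change of 0.43 to 0.52. Its call with 65 Gy at 2 weeks (edgeR adjusted p = 0.0494) was lost without any of 13 libraries (all but 3129, 3132, 3134 and 3141). That with 75 Gy at 2 weeks was lost without library 3134 (0.34). Those at 6 weeks were lost without any of 4 (3136, 3137, 3138 and 3140) for 65 Gy and 3 (3136, 3137 and 3141) for 75 Gy.

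Fabp4, the fatty acid binding protein of adipocytes that some macrophages and endothelial cells also make, lies 187731 bases from Fabp5 on chromosome 3. It was at 23.6, 14.1 and 17.2 CPM in non-irradiated lung at 2 weeks, 61.1, 12.2 and 14.5 with 65 Gy and 27.8, 24.2 and 19.5 with 75 Gy, so that the groups overlapped. After 6 weeks it was at 7.85, 6.95 and 23.9 CPM in non-irradiated lung, 28.1 and 32.1 with 65 Gy and 48, 41.9 and 52.6 with 75 Gy. The log2 fold change with 75 Gy at 6 weeks was 1.88 ± 0.54 (SE, edgeR adjusted p = 0.0136). It was 2.68 without library 3137, and the call was lost without library 3135 or 3136. With 65 Gy at 6 weeks it was 1.22 without passing, and 2.02 (edgeR adjusted p = 0.0401) without library 3137. Libraries 3129 and 3137, the highest of their groups for Fabp4, also had the highest summed adipocyte markers of all 17, 168 and 100.4 CPM. Adipoq, which encodes adiponectin and defines adipocytes, was at 10.5 and 6.11 CPM in them. At 6 weeks the markers summed to 14.7, 18.9 and 100.4 CPM in non-irradiated lung, 39.5 and 51.1 with 65 Gy and 88.7, 73.9 and 95.9 with 75 Gy. At 2 weeks they summed to 81, 72.1 and 75.8 CPM in non-irradiated lung and 168, 8.23 and 9.81 with 65 Gy. With 75 Gy at 2 weeks they summed to 2.28, 22.4 and 7.33 CPM, where Fabp4 was at 27.8, 24.2 and 19.5 CPM. The part of fat tissue in the Fabp4 values was not tested.

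**Figure D3:**
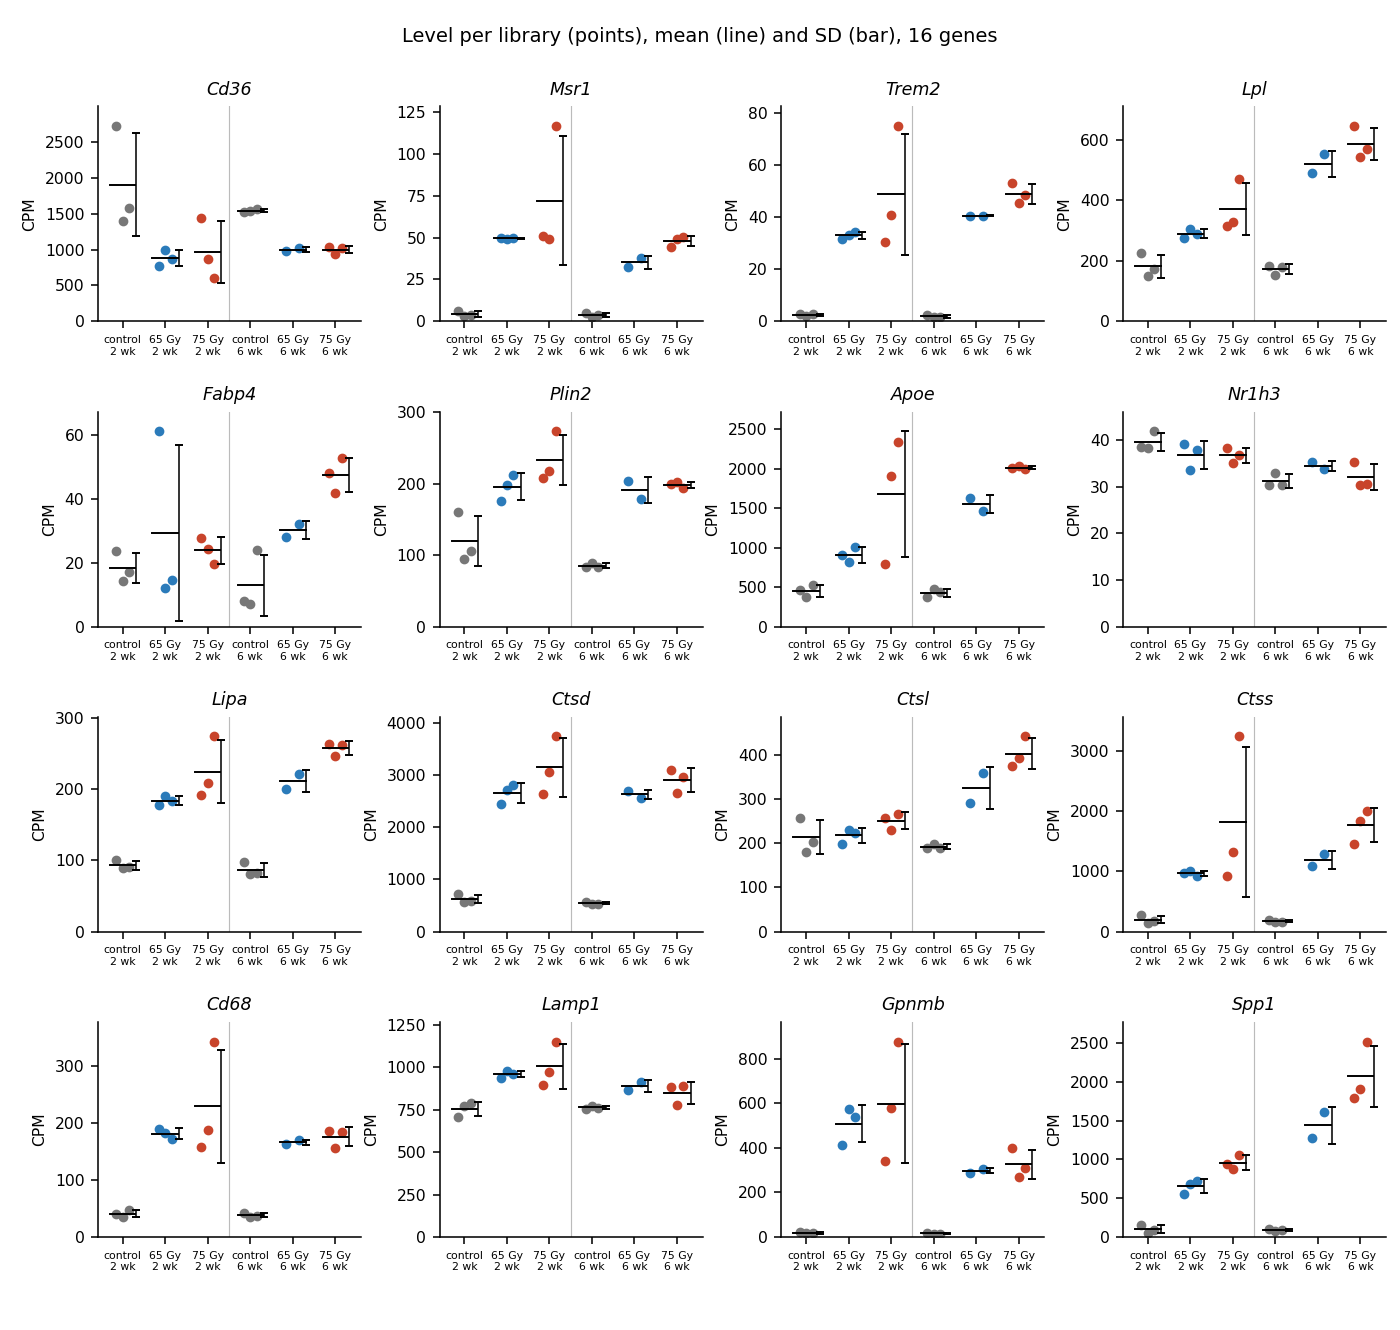
Levels of 16 of the genes in CPM (y axes) in each library (points) by group (x axes), with the group mean (line) and SD (bar); non-irradiated in grey, 65 Gy in blue and 75 Gy in red. Irradiated and non-irradiated libraries do not overlap for Trem2, Msr1, Ctsd, Ctss, Cd68, Gpnmb and Spp1, and 1 library of 75 Gy at 2 weeks lies far above its group for Msr1, Trem2, Ctss and Cd68.

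Cholesterol efflux was represented by Apoe, Abca1, Abcg1 and their regulator Nr1h3. Apoe, the apolipoprotein that accepts exported cholesterol, was at 457, 379 and 529.8 CPM in non-irradiated lung at 2 weeks, 903, 817 and 1015 with 65 Gy and 792, 1915 and 2336 with 75 Gy. One 75 Gy library thus lay below the 65 Gy libraries and the others far above them. At 6 weeks it was at 376, 478 and 435 CPM in non-irradiated lung, 1630.0 and 1469 with 65 Gy and 2015, 2032 and 1997 with 75 Gy. Its fold was 2.0 and 3.69 at 2 weeks and 3.61 and 4.69 at 6 weeks for 65 and 75 Gy, and the 65 Gy call at 2 weeks was lost without library 3127, 3129 or 3131. Abca1, which loads cholesterol onto apolipoproteins, passed the test with 75 Gy at 2 and 6 weeks (0.76 and 0.80, edgeR adjusted p = 0.0297 and 0.0157) and had values of 0.49 and 0.58 with 65 Gy (adjusted p = 0.207 and 0.15). Its 2-week call was lost without library 3126, 3127 or 3134, at 0.39 without the last, and its 6-week call without library 3137. Abcg1, which exports cholesterol to high-density lipoprotein, was higher in the 4 comparisons by 0.56 to 0.73 on the log2 scale, with the 65 Gy calls lost without library 3127, 3130 or 3131 at 2 weeks and 3138 or 3140 at 6 weeks. Nr1h3, the liver X receptor alpha, was at 30.3 to 41.9 CPM in non-irradiated and 30.4 to 39.2 CPM in irradiated libraries. Its log2 fold changes were -0.11 to 0.15, none of them called.

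Of the 3 genes that release cholesterol from the lysosome, Lipa and Npc2 were higher in each comparison and Npc1 was called in none. Lipa, the lysosomal acid lipase, was at 101, 89 and 90.7 CPM in non-irradiated lung at 2 weeks, 177, 190.0 and 184 with 65 Gy and 191, 208 and 274 with 75 Gy. Its fold was 1.97 and 2.4 at 2 weeks and 2.42 and 2.96 at 6 weeks. Npc2, the soluble protein that receives the freed cholesterol, had folds of 1.74, 1.76, 1.98 and 2.14 in the same order. Npc1, the membrane protein to which Npc2 passes it, had log2 fold changes with 95% intervals of 0.20 (-0.11 to 0.51), 0.18 (-0.13 to 0.49), 0.01 (-0.34 to 0.35) and -0.04 (-0.36 to 0.27).

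The lysosomal proteases and their inhibitor Cstb moved together: 6 of 7 were higher at 2 weeks and 7 of 7 at 6 weeks, at both doses. Ctsd, the aspartic protease cathepsin D (chromosome 7, 142375910-142387827), was at 723, 571 and 594 CPM in non-irradiated lung at 2 weeks, 2448, 2711 and 2809.8 with 65 Gy and 2631, 3064 and 3739.5 with 75 Gy. By 6 weeks it was at 568, 534 and 532 CPM in non-irradiated lung, 2688 and 2566 with 65 Gy and 3101, 2651 and 2962 with 75 Gy. The groups did not overlap, and the fold was 4.22 (95% interval 3.47 to 5.13) and 5.0 (95% interval 4.1 to 6.08) at 2 weeks and 4.82 (95% interval 3.91 to 5.95) and 5.33 (95% interval 4.38 to 6.5) at 6 weeks. Ctsk and Ctss lie 17398 bases apart on chromosome 3 and both rose. Ctsk, a collagen-degrading protease best known from osteoclasts, was at 15.6 to 22.1 CPM in non-irradiated and 95.8 to 151 CPM in irradiated libraries, with folds of 5.87 to 7.7. Ctss, a protease of macrophages and dendritic cells that also prepares MHC class II, was at 270.0, 147 and 186 CPM in non-irradiated lung at 2 weeks, 977, 1000.5 and 922 with 65 Gy and 916, 1317 and 3239 with 75 Gy, where library 3134 was the highest. By 6 weeks it was at 196, 169 and 158 CPM in non-irradiated lung, 1086 and 1295 with 65 Gy and 1455, 1841 and 1999 with 75 Gy. Its fold was 4.81 and 9.07 at 2 weeks and 6.83 and 10.1 at 6 weeks, and 5.55 with 75 Gy at 2 weeks without library 3134.

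Ctsb, the cysteine protease cathepsin B, had folds of 2.48 to 3.46 over the 4 comparisons, Lgmn, which encodes the asparagine-specific protease legumain, 2.07 to 2.79, and Cstb, the inhibitor cystatin B, 2.26 to 3.25. Ctsl, cathepsin L, passed the test at 6 weeks and not at 2 weeks. It was at 257, 181 and 203 CPM in non-irradiated lung at 2 weeks, 199, 230.4 and 224 with 65 Gy and 256, 230.3 and 267 with 75 Gy, with overlap. After 6 weeks it was at 189, 199 and 189 CPM in non-irradiated lung, 292 and 359 with 65 Gy and 375, 391 and 441 with 75 Gy, with log2 fold changes of 0.76 and 1.07 (edgeR adjusted p = 0.00243 and 3.26e-05). The 65 Gy call was lost without library 3140, and without library 3126 Ctsl, Lamp2 and Cd9 were also called higher with 75 Gy at 2 weeks.

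Of the 7 genes grouped under lysosomal membrane, glycosidases and acidification, Cd68, Cd63, Hexa and Atp6v0d2 were higher in all 4 comparisons. The 7 include Mitf, which encodes a MiT-TFE factor and not a membrane protein, glycosidase or pump subunit. Cd68, a lysosomal membrane glycoprotein of macrophages, was at 40.4, 35.6 and 46.9 CPM in non-irradiated lung at 2 weeks, 189.7, 182 and 171 with 65 Gy and 157, 188 and 343 with 75 Gy. Its fold was 4.42 and 5.59 at 2 weeks and 4.4 and 4.67 at 6 weeks. Atp6v0d2, a proton pump subunit of osteoclasts and macrophages, was at 53.3, 34.5 and 41.4 CPM in non-irradiated lung at 2 weeks, 99, 118 and 108 with 65 Gy and 137, 139.8 and 161 with 75 Gy, a fold of 2.51 and 3.39, and its fold was 4.44 and 4.84 at 6 weeks. Cd63, a tetraspanin of late endosomes, had folds of 1.77 to 2.9, and Hexa, which degrades gangliosides, 1.9 to 2.44. Mitf passed the test with 75 Gy at 2 and 6 weeks (0.82 and 0.65) and had values of 0.47 and 0.65 with 65 Gy (edgeR adjusted p = 0.141 and 0.0553), and its 75 Gy call at 6 weeks was lost without library 3135 or 3143.

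Lamp1 and Lamp2, structural glycoproteins of the lysosomal membrane in most cell types, had smaller values. Lamp1 was at 709.9 to 789.7 CPM in non-irradiated and 776 to 1152 CPM in irradiated libraries. Its log2 fold changes of 0.34 and 0.41 at 2 weeks passed the test, those of 0.22 and 0.16 at 6 weeks did not (edgeR adjusted p = 0.184 and 0.221), and the 65 Gy call at 2 weeks was lost without any of 6 libraries (3126, 3127, 3128, 3129, 3130 and 3131). Lamp2 passed the test with 75 Gy at 6 weeks (0.72) and had values of 0.09, 0.33 and 0.45 for 65 and 75 Gy at 2 weeks and 65 Gy at 6 weeks (edgeR adjusted p = 0.72, 0.0831 and 0.0501).

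Promoter windows from RefSeq, from 250 bases before to 50 after a transcript start in GRCm38.p6, were at hand for 26 of the 35 genes. The CLEAR core CACGTG, searched on both strands, lay in a window of 6 of them (Abca1, Plin2, Ctsd, Ctsl, Lamp1 and Lgmn) and of 8.09% of the 27025 genes with a window. The longer form GTCACGTG, which contains the core, lay in 3 (Ctsd, Lamp1 and Lgmn) against 2.55%, and the M-box TCACATGA in 1 (Ctss) against 1.15%. The nuclear receptor half-site AGGTCA lay in 6 of 26 against 18.1%, in Ctsd overlapping a CACGTG. Its exact direct repeat with a gap of 4, a form that liver X receptors bind, lay in 0 against 4 of 27025 genes (0.0148%). With 1 mismatch allowed the repeat lay in 0 against 0.278%. Both forms are too rare for 0 of 26 to show whether these windows hold a site for liver X receptors. The 250 bases before the start are printed for the 2 genes with more than 1 CACGTG (in capitals), Ctsd with its high fold and Lamp1 with its low one. They lie at chr7:142387828-142388077 (minus strand) and chr8:13158911-13159160 (plus strand) and are written 5′ to 3′ in the direction of the gene.
Ctsd: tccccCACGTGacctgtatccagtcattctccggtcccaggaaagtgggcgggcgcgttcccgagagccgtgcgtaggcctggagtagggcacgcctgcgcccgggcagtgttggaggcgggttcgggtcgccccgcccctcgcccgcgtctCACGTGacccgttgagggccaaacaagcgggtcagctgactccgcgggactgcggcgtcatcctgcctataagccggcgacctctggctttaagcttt
Lamp1: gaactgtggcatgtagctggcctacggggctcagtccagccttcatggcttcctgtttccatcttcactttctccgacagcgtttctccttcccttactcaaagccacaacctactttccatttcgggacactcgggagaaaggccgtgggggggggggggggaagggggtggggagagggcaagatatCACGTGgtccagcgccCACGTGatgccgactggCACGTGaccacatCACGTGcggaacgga
The single CACGTG of the other four genes is printed with 12 bases on each side, to show how the flanking bases differ.
Abca1: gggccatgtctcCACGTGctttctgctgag
Plin2: cagctgggctatCACGTGgctcggaggctt
Ctsl: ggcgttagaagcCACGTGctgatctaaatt
Lgmn: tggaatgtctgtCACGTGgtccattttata
Counted from the transcript start, with negative positions before it, the matches begin at -245 and -98 in Ctsd, at -61, -45, -28 and -15 in Lamp1, at -147 in Abca1, -4 in Plin2, -236 in Ctsl and -49 in Lgmn. In Plin2, Ctsl and Lgmn, all on the minus strand, the start used and the match lie inside the gene. The outermost starts of these genes are at 86670217, 64370772 and 102439728, so their matches follow an earlier start. With 75 Gy at 6 weeks these genes had log2 fold changes of 2.42, 0.16, 0.80, 1.22, 1.07 and 1.22 in that order, so that genes with the motif spanned high and low values. A match describes the letters in this window and was not tested as a binding site.

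The surface and secreted proteins included the genes with the highest folds. Gpnmb, a glycoprotein of lysosome and cell surface (chromosome 6, 49036518-49058182), was at 20.7, 15.8 and 16.6 CPM in non-irradiated lung at 2 weeks, 413, 575 and 540.0 with 65 Gy and 341, 578 and 877 with 75 Gy. The 6-week values were 19.7, 13.4 and 15.1 CPM in non-irradiated lung, 289 and 306 with 65 Gy and 399, 269 and 309 with 75 Gy. Its fold of 28.8 (95% interval 18.3 to 45.3) and 33.9 (95% interval 21.4 to 53.5) at 2 weeks was the highest of the 35 genes at either dose. At 6 weeks it was 18.5 (95% interval 11.7 to 29.2) and 20.3 (95% interval 13 to 31.6), below Trem2 at both doses and below Spp1 with 75 Gy. Spp1, the secreted matrix protein osteopontin (chromosome 5, 104435111-104441053), was at 153, 53.2 and 89.5 CPM in non-irradiated lung at 2 weeks, 553, 682 and 725 with 65 Gy and 938, 875 and 1059.5 with 75 Gy. Its 6-week values were 96.5, 72.6 and 94 CPM in non-irradiated lung, 1269.6 and 1608 with 65 Gy and 1789, 1903 and 2521 with 75 Gy, and its fold was 6.63 and 9.71 at 2 weeks and 16.4 and 23.6 at 6 weeks. Lgals3, which encodes the lectin galectin-3, and Itgax, the CD11c integrin of alveolar macrophages and dendritic cells, were higher in all 4 comparisons, with folds of 2.36 to 3.62 and 2.22 to 3.35. Cd9, a tetraspanin of many cell types, was called with 75 Gy at 6 weeks (0.56) and had values of 0.03, 0.15 and 0.27 for 65 and 75 Gy at 2 weeks and 65 Gy at 6 weeks.

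Levels per kilobase of exon could be computed for 34 of the 35 genes. The exon length joins all annotated transcripts of a gene and can exceed that of the transcript in use, so ranks between genes are approximate. On this scale Cd36 ranked first in non-irradiated lung at both times (529 and 429 CPM per kb), ahead of Lamp1 (283 and 286) and Ctsd (268 and 232). With 75 Gy at 2 weeks the order of levels was Ctss (1343), Ctsd (1338), Apoe (786) and Spp1 (581), and at 6 weeks Ctss (1299.6), Spp1 (1257), Ctsd (1235) and Apoe (942). Cd36 ranked 6 of 34 in each irradiated group. Spp1 went from rank 11 in non-irradiated lung to 4 with either dose at 2 weeks, and to 3 with 65 Gy and 2 with 75 Gy at 6 weeks. Trem2, in spite of its fold, ranked 32 with 75 Gy at both times, a rank that rests on a joined exon length of 4946 bases. The order of Ctss and Ctsd with 75 Gy at 2 weeks was not resolved, since the SD of Ctss was 1242 around a mean of 1824 CPM. Nor was that of Ctss, Spp1 and Ctsd with 75 Gy at 6 weeks, where each of these genes ranked first in 1 of the 3 libraries.

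The comparison between the doses asked whether 75 Gy differed from 65 Gy. By edgeR with adjustment, 0 of the 35 genes were higher and 0 lower with 75 Gy at 2 weeks, 0 and 0 at 6 weeks, and 0 and 0 with both times joined, and 0.0% of all genes were called in each. DESeq2 and limma-voom called 0 in all of these and the edgeR exact test 0 at each time. At 2 weeks 32 of the 35 differences were above 0 with a median of 0.29, and 12 had an unadjusted p under 0.05, all higher with 75 Gy, where 7.12% of all genes had such a p. These were Apoe, Atp6v0d2, Cd63, Clec7a, Cstb, Ctss, Fabp5, Hexa, Itgax, Lipa, Lpl and Trem2. The median difference of all genes was 0.00. That of the pan-macrophage markers described below was 0.52, and 7 of the 35 genes lay above this marker median. Clec7a differed by 1.08 (0.31 to 1.85) on the log2 scale with its 95% interval, Ctss by 0.92 (0.20 to 1.64) and Apoe by 0.88 (0.32 to 1.45). Without library 3134 the difference was 0.41 for Clec7a, 0.21 for Ctss and 0.57 for Apoe, the median was 0.06, 20 of 35 were above 0 and 4 had such a p. When only the groups compared were fitted 7 had such a p. Without library 3132 the median was 0.46, 20 had such a p and Apoe was called higher. For 7 genes every 75 Gy library lay above every 65 Gy library at 2 weeks, a pattern of 5.0% of all genes.

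At 6 weeks 29 of the 35 differences were above 0 with a median of 0.17, and 3 had an unadjusted p under 0.05 (Cd9 0.28, Ctsl 0.31 and Lipa 0.29), where 6.49% of all genes had such a p. The median was 0.01 for all genes and 0.36 for the pan-macrophage markers, and 6 of the 35 genes lay above the marker median. For 19 genes all 75 Gy libraries lay above both 65 Gy libraries, a pattern of 15.6% of all genes. The number with an unadjusted p under 0.05 at 6 weeks was 0 without library 3142 or 3143 and 6 without library 3134. It was 11 without 3126 and 3134 and 13 when only the groups compared were fitted. The median ran from 0.09 to 0.22 when an irradiated 6-week library was left out. With both times joined, 33 differences were above 0 with a median of 0.26 and 16 had such a p, and without library 3134 these were 27, 0.12 and 11. The joined median was 0.01 for all genes and 0.39 for the pan-macrophage markers, and 7 of the 35 genes lay above the marker median. Without library 3138 the number with such a p was 6. The share of all genes with such a p is not given here for the joined times. For Gpnmb the difference was 0.23 (-0.32 to 0.79) at 2 weeks and 0.13 (-0.49 to 0.75) at 6 weeks, and for Ctsd 0.24 (-0.03 to 0.51) and 0.14 (-0.16 to 0.45). Trem2 differed by 0.57 (0.05 to 1.09) and 0.27 (-0.31 to 0.86), the first being 0.12 without library 3134, and Spp1 by 0.55 (-0.03 to 1.13) and 0.53 (-0.13 to 1.18). The intervals of Spp1 reached past 1 on the log2 scale at both times, while those of Ctsd ended well below it.

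**Figure D4:**
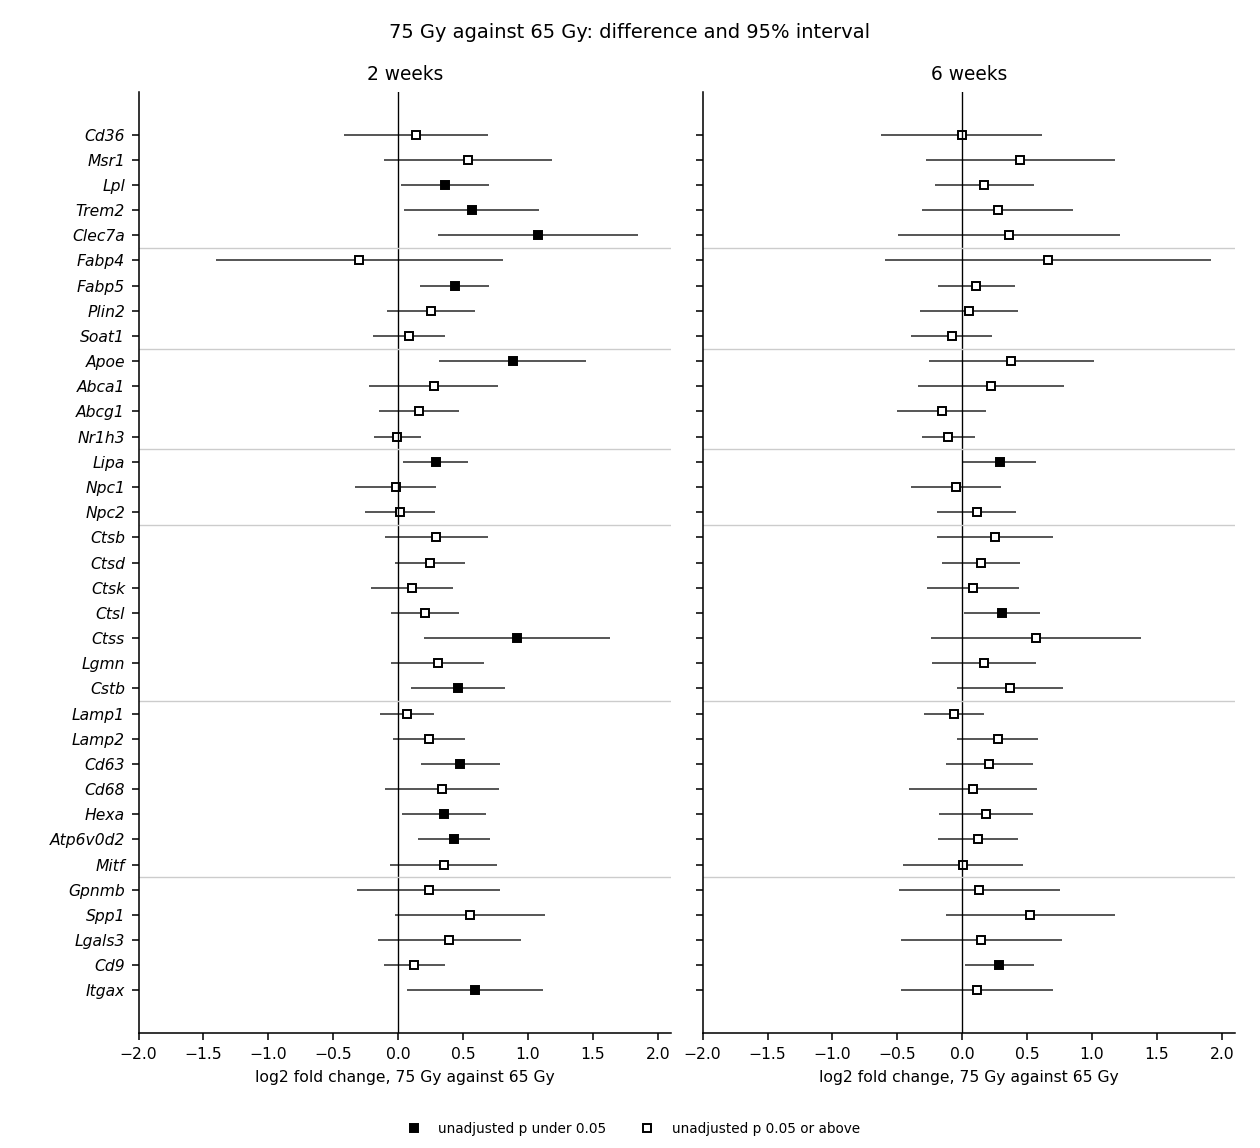
Log2 difference between 75 and 65 Gy (x axis, above 0 where 75 Gy is higher) for each gene (y axis) at 2 and 6 weeks with 95% intervals. Filled points have an unadjusted p under 0.05; 32 values lie above 0 at 2 weeks and 29 at 6 weeks, and most intervals include 0.

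The time course was tested as the difference between the effect at 6 weeks and the effect at 2 weeks, each against its own non-irradiated group. By edgeR 0 of the 35 genes passed with 75 Gy, where 0.299% of all genes did, and 0 with 65 Gy, where 0.0136% did. An unadjusted p under 0.05 was reached by 5 genes with 75 Gy (Atp6v0d2, Cd9, Ctsl, Lpl and Spp1) and 6 with 65 Gy (Apoe, Atp6v0d2, Cd63, Ctsl, Lpl and Spp1), all with the larger value at 6 weeks. Without library 3134 the numbers were 11 with 75 Gy and 10 with 65 Gy, and Lpl was called with 75 Gy, while without library 3127 they were 6 and 10, and Ctsl and Spp1 were called with 75 Gy. When only the groups compared were fitted, the numbers were 6 and 12. The share of all genes with such a p is not given here, so no excess over it is read from these numbers. For 75 Gy without library 3134, Clec7a was at 1.08 and Ctss at 0.87, against 0.41 and 0.16 with it. Both comparisons use the same non-irradiated libraries. For 75 and 65 Gy the difference was 1.28 and 1.31 for Spp1, 0.74 and 0.93 for Lpl, 0.83 and 0.73 for Ctsl and 0.51 and 0.82 for Atp6v0d2. The edgeR adjusted p of Ctsl with 75 Gy was 0.0618. DESeq2 called Ctsl, Lpl and Spp1 with 75 Gy and Ctsl, Lpl and Atp6v0d2 with 65 Gy, and limma-voom called 0 in both. Gpnmb went the other way, at -0.74 (-1.53 to 0.05) and -0.64 (-1.48 to 0.21) with 95% intervals that include 0.

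Between the non-irradiated groups of 6 and 2 weeks 0 of the 35 genes were higher and 0 lower by edgeR, where 1.63% of all genes were called. The median was -0.17, and 3 genes had an unadjusted p under 0.05, all lower at 6 weeks (Fabp5 -0.44, Nr1h3 -0.34 and Plin2 -0.50), where 15.5% of all genes had such a p. DESeq2 and the edgeR exact test each called 2 genes lower.

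Other genes of the same pathways were counted in the same way. The shares of all genes called higher and lower were 6.7% and 4.29% with 65 Gy at 2 weeks and 11.8% and 10.5% with 75 Gy. At 6 weeks they were 7.66% and 7.01% with 65 Gy and 18.0% and 18.0% with 75 Gy. They serve for these lists and for the cell-type markers below. Of 50 further lysosomal hydrolases and cofactors, 26 were higher and 0 lower with 65 Gy at 2 weeks, 31 and 2 with 75 Gy at 2 weeks, 25 and 2 with 65 Gy at 6 weeks, and 31 and 3 with 75 Gy at 6 weeks, with medians between 0.40 and 0.52. Psap, the precursor of the saposins that help degrade sphingolipids, had log2 fold changes of 1.50 and 2.01 at 2 weeks and 1.48 and 1.60 at 6 weeks for 65 and 75 Gy. Ctsz was higher by 1.29 to 1.77, Gla by 1.20 to 1.52, Fuca1 by 0.53 to 0.75 and Dnase2a by 0.86 to 1.22 over the 4 comparisons. Of 22 other proton pump subunits, 4 were higher and 1 lower with 65 Gy at 2 weeks, 12 and 1 with 75 Gy at 2 weeks, 11 and 1 with 65 Gy at 6 weeks, and 13 and 2 with 75 Gy at 6 weeks. Atp6v1e1, Atp6ap2 and Atp6v1g1 had values of 0.82, 0.75 and 0.79 with 75 Gy at 6 weeks, all called, whereas Atp6v0a1 and Atp6v0a2 were called in none of the 4. Tcirg1, the osteoclast form of the subunit those encode, was called in all but 65 Gy at 2 weeks, at 0.69 to 1.05.

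Of 18 MiT-TFE factors and autophagy receptors, 5 were higher and 1 lower with 65 Gy at 2 weeks, 5 and 1 with 75 Gy at 2 weeks, 3 and 0 with 65 Gy at 6 weeks, and 3 and 2 with 75 Gy at 6 weeks. The number higher with 75 Gy at 6 weeks was near the 18.0% of all genes. Tfec, a family member restricted to few cell types, among them macrophages, was higher in the 4 comparisons by 1.07 to 2.03, while Tfeb (-0.10 to 0.18) and Tfe3 (-0.05 to 0.40) were called in none. Rragd, a GTPase that brings these factors to the lysosome, was higher by 0.74 to 1.30 and Gabarap by 0.31 to 0.56. Of 23 other lipid droplet genes, 0 were higher and 2 lower with 65 Gy at 2 weeks, 2 and 5 with 75 Gy at 2 weeks, 3 and 1 with 65 Gy at 6 weeks, and 4 and 4 with 75 Gy at 6 weeks. Both counts with 75 Gy at 6 weeks were near the 18.0% higher and 18.0% lower of all genes. Plin3 was called in none (0.14 to 0.25), and with 75 Gy at 6 weeks Acsl4 was at 0.51, Cideb at 2.08 and Fabp1 at -2.73, all called. The adipocyte droplet gene Plin4 was lower with 75 Gy at 2 weeks (-1.77), where the summed adipocyte markers were at 2.28 to 22.4 CPM against 72.1 to 81 in non-irradiated lung, and Plin1 was at -2.64 without passing.

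Of 25 other genes of lipoprotein uptake, cholesterol sensing and efflux, 4 were higher and 1 lower with 65 Gy at 2 weeks, 7 and 2 with 75 Gy at 2 weeks, 7 and 1 with 65 Gy at 6 weeks, and 7 and 4 with 75 Gy at 6 weeks. Olr1, the oxidized lipoprotein receptor LOX-1, was higher in the 4 comparisons by 1.46 to 1.90 and Ch25h, which makes an oxysterol, by 1.19 to 1.82. Apoc1 and Pparg were called in all but 65 Gy at 2 weeks, with ranges of 0.47 to 1.72 and 0.20 to 0.83. Nr1h2, the other liver X receptor, and Rxra, its partner, were called in none. Of 8 TREM2 signalling partners, 1 was higher and 0 lower with 65 Gy at 2 weeks, 3 and 0 with 75 Gy at 2 weeks, 3 and 0 with 65 Gy at 6 weeks, and 3 and 0 with 75 Gy at 6 weeks. Tyrobp, the TREM2 adaptor, had log2 fold changes of 0.68 and 1.31 at 2 weeks and 1.35 and 1.65 at 6 weeks for 65 and 75 Gy, of which the first did not pass (edgeR adjusted p = 0.0571). With 75 Gy at 6 weeks Axl was at 0.84 and Hcst at 0.68, both called, and Syk was called in none of the 4. Of 10 genes shared with osteoclasts, 6 were higher and 1 lower with 65 Gy at 2 weeks, 5 and 1 with 75 Gy at 2 weeks, 4 and 2 with 65 Gy at 6 weeks, and 4 and 3 with 75 Gy at 6 weeks. Mmp12, macrophage elastase, had log2 fold changes of 3.12 and 4.30 at 2 weeks and 5.49 and 5.70 at 6 weeks for 65 and 75 Gy, Acp5 of 1.77 and 2.29 at 2 weeks and 2.23 and 2.47 at 6 weeks for 65 and 75 Gy and Dcstamp of 2.39 and 3.62 at 2 weeks and 3.75 and 4.31 at 6 weeks for 65 and 75 Gy, the last from a mean of 0.303 and 0.231 CPM in non-irradiated lung. Ocstamp, at means under 1 CPM in every group, was called at 2 weeks and not at 6 weeks.

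**Figure D5:**
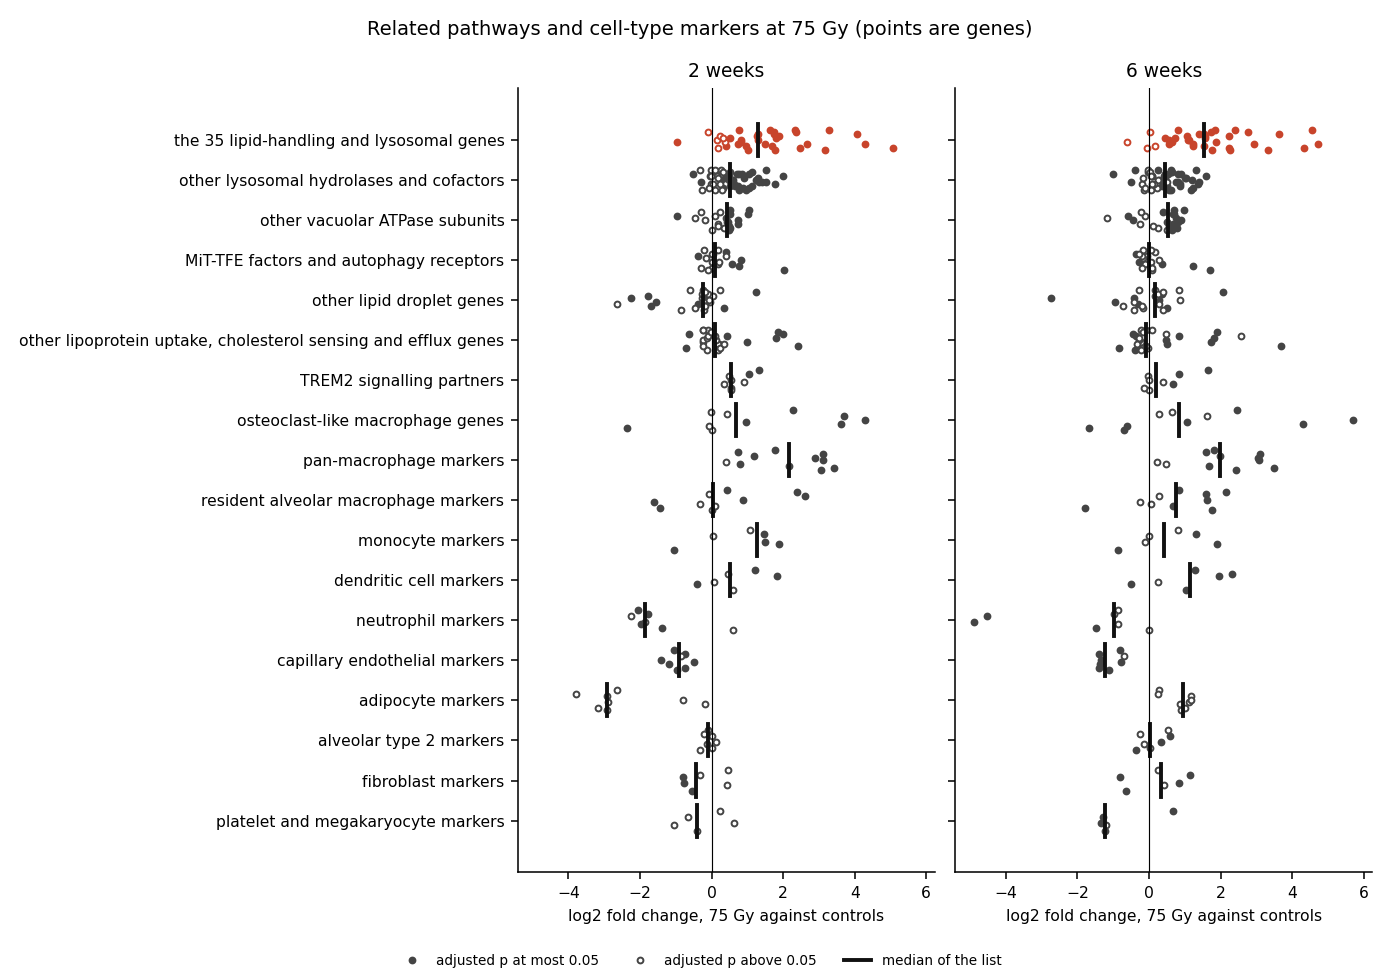
Log2 fold change of single genes (points) with 75 Gy against non-irradiated lung at 2 and 6 weeks (x axes) for the 35 genes (red) and for related pathway and cell-type marker lists (y axis), with bars for medians. Filled points have an edgeR adjusted p of at most 0.05; the pan-macrophage markers have medians of 2.16 and 1.97, above the 1.30 and 1.55 of the 35 genes.

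Macrophage markers rose along with the 35 genes. Of 11 pan-macrophage markers, 8 were higher and 0 lower with 65 Gy at 2 weeks, 10 and 0 with 75 Gy at 2 weeks, 9 and 0 with 65 Gy at 6 weeks, and 9 and 0 with 75 Gy at 6 weeks, with medians of 1.65, 2.16, 1.70 and 1.97. In that order 8, 9, 12 and 11 of the 35 genes lay above the marker median. Adgre1, which encodes F4/80, was higher in the 4 comparisons by 1.39 to 1.83 and Cd14 by 1.07 to 1.97, and Csf1r passed with 75 Gy at 2 weeks alone (0.80). Summed, the 11 markers were at 4358 to 10427 CPM in non-irradiated libraries, with library 3126 the highest, and 8808 to 14731 CPM in irradiated ones. How far macrophage number sets the level of the 35 genes was not tested.

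Of 10 resident alveolar macrophage markers, 3 were higher and 3 lower with 65 Gy at 2 weeks, 4 and 2 with 75 Gy at 2 weeks, 6 and 0 with 65 Gy at 6 weeks, and 6 and 1 with 75 Gy at 6 weeks, and Siglecf, which defines these cells in mouse lung, was called in none (-0.51 to 0.29). Marco was higher in 3 of the 4 (not with 75 Gy at 6 weeks, 0.27), and Chil3 at 6 weeks (2.11 and 1.75). Monocyte markers had 2 to 3 of 6 higher and 1 lower, and dendritic cell markers 2 to 4 of 6 higher and 0 to 1 lower. Neutrophil markers had 0 of 7 higher and 1 to 4 lower, with summed levels of 413 to 769 CPM in non-irradiated and 131 to 350.0 CPM in irradiated libraries. Alveolar type 2 markers had 0 to 2 of 7 higher and 0 to 1 lower, fibroblast markers 0 to 2 of 6 and 1 to 3, platelet markers 0 to 1 of 5 and 0 to 3, and adipocyte markers 0 to 1 of 8 and 0. The part of these cell types in the values of the 35 genes was not tested.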

How the data were processed

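RNA of mouse lung was sequenced in 17 stranded mRNA libraries. Upstream, the authors used Trimmomatic for trimming, HISAT2 for alignment (mouse build GRCm38.p6) and StringTie for assembly, and deposited raw read counts per gene. How the counts were taken from StringTie is not given in the sources used here. The columns were joined to samples by the library number in the labels. From the deposited counts, genes were filtered with filterByExpr (minimum count 10, minimum total 15), libraries were scaled by TMM, and all 17 libraries were fitted together with edgeR 4.0.16 (quasi-likelihood test, 1 coefficient per group, Benjamini-Hochberg adjustment over all genes tested) in R 4.3.3. Intervals are 95% intervals from this fit. Alternatives were DESeq2 1.42.0, the edgeR exact test, limma-voom (limma 3.58.1), other filters and scalings, fits of only the groups compared, and leaving out each library. Leaving out libraries 3126 and 3134 together was added after seeing the data. The fit was tested on simulated data. Exon lengths, joined over all transcripts of a gene, came from a gene annotation and promoter windows from RefSeq. Windows for Lpl, Ctsb, Msr1, Npc1, Fabp5, Atp6v0d2, Abcg1, Fabp4 and Cstb were not used here. The 35 genes and the other lists were chosen with earlier results of these data known. Any of the 35 could be named, and of each other list the first 3 genes as written and, for pathways, the 3 with the smallest p for 75 Gy at 6 weeks. One gene that this rule names is not reported here. Total counts of 46764569 to 66797879 per library set the counting precision.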

Additional observations from a re-analysis of the deposited data

How the results depend on the processing

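No paired analysis was possible because the labels give the groups no shared replicate numbers. The log2 fold changes of the 35 genes in irradiated against non-irradiated lung were compared with those of the other filters, scalings, tools and fits. Of these values 1231 stayed on their side of the threshold, 19 were put past it and 10 were taken back. Among values called in either fit, 0 changed direction. The direction of values called in neither fit was not compared. The scalings moved the median of all genes by at most 0.05 on the log2 scale. When only the groups compared were fitted, 22 and not 28 genes were higher with 75 Gy at 2 weeks, 25 and not 26 with 65 Gy at 2 weeks, and 31 and not 26 with 65 Gy at 6 weeks. The number of the 35 genes lower with 75 Gy at 2 weeks was 0 in that fit, and as DEGs it was 1 by limma-voom. With 75 Gy at 6 weeks 1 gene was lower by DESeq2 and 1 when only the groups compared were fitted, as was 1 with 65 Gy at 6 weeks in that fit. Between the non-irradiated groups 1 gene was lower with at least 10 counts required in every library, 2 by DESeq2 and 2 by the edgeR exact test. For the effect of 75 Gy at 6 against 2 weeks 1 gene was higher with library totals alone and 3 by DESeq2, of which 1 as a DEG, and for 65 Gy 3 by DESeq2. The cause of these changes was not tested.

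Leaving out 1 library at a time, the number of genes higher ran from 26 to 30 with 75 Gy at 2 weeks, 29 to 31 at 6 weeks, 19 to 27 with 65 Gy at 2 weeks (19 without library 3127) and 23 to 29 at 6 weeks. As DEGs these were 19 to 23, 24 to 25, 15 to 19 and 20 to 22. The number lower ran from 0 to 1 with 75 Gy at either time and with 65 Gy at 2 weeks, as DEGs from 0 to 1 with either dose at 2 weeks, and from 0 to 2 between the non-irradiated groups. It ran from 0 to 2 higher for the effect of 75 Gy at 6 against 2 weeks (0 to 1 as DEGs), and from 0 to 1 higher for 75 against 65 Gy at 2 weeks (0 to 1 as DEGs) and with both times joined. With libraries 3126 and 3134 left out together, which was chosen after seeing the data, 29, 31, 27 and 31 genes were higher for 75 Gy at 2 and 6 weeks and 65 Gy at 2 and 6 weeks. The number lower was then 0 with 75 Gy at 2 weeks, 1 with 75 Gy at 6 weeks and 1 with 65 Gy at 6 weeks, the number lower as DEGs with 65 Gy at 2 weeks was 0, and 1 was higher for the effect of 75 Gy at 6 against 2 weeks.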
